A study of Mus musculus with 56 samples.

Results

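The expression of 10 genes of the G1 checkpoint, of 18194 genes named on the arrays, was followed through mouse mammary tumors: the inhibitors Cdkn2a, Cdkn2b and Cdkn1b, the tumor suppressor Rb1, the cyclins Ccnd1, Ccnd2, Ccnd3 and Ccne1, and the kinases Cdk4 and Cdk6. A gene was taken by its symbol in the platform annotation, and where it had several probe sets, the one with the highest mean over the 56 arrays stood for it. Those 10 genes had 27 probe sets, and all 10 were among the 12508 genes kept for testing. The tumors arose from p53null mammary fragments that had not themselves been irradiated and that were transplanted into female BALB/c mice cleared of their own mammary epithelium at 3 weeks of age. Irradiation or sham irradiation of the host took place 3 days ahead of transplantation. The host was either wild type or a heterozygote for Tgfb1, which encodes the cytokine TGF-beta 1. Irradiated hosts that were wild type gave 23 tumors and their sham counterparts 9, and irradiated Tgfb1 heterozygote hosts gave 18 and their sham counterparts 6. All tumors lacked p53 in the transplanted epithelium, in sham hosts as well. The radiation dose and whether tumors shared a host are not given in the sources used here, so p-values measure the spread between these tumors.

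In G1, D-type cyclins bind Cdk4 or Cdk6 and the active kinase phosphorylates the retinoblastoma protein, which then releases E2F transcription factors; cyclin E with its own kinase carries this on into DNA synthesis. The Ink4 inhibitors encoded by Cdkn2a and Cdkn2b block Cdk4 and Cdk6, and p27, encoded by Cdkn1b, mainly blocks the cyclin E kinase. Cdkn2a also encodes Arf, a protein that stabilises p53. Cyclin D1 is needed for full growth of the mammary epithelium in pregnancy, and the gene is often overexpressed in breast tumors.

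The 10 genes did not separate tumors of irradiated hosts from those of sham hosts, but single tumors departed far from the rest. In one tumor of an irradiated wild-type host Cdkn2a was 3.61 log2 units below the median of wild-type hosts, in one tumor of a sham-irradiated Tgfb1 heterozygote host Rb1 was 7.06-fold above the median of heterozygote hosts, and in one tumor of an irradiated heterozygote host Cdk6 was 5.81-fold below it. Ccnd2 was high in 11 tumors spread over all 4 groups. Cdkn2a and Cdkn2b, which lie next to each other, ran together across tumors of both host genotypes, and Ccnd3 and Cdk4 ran together with other genes of their own chromosomes.

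Values below are log2 expression. The median of an array lay between 5.92 and 6.00 in wild-type hosts and between 5.57 and 5.71 in heterozygote hosts, so levels were compared only within a host genotype. Of 8 epithelial genes, Epcam, Cdh1, Krt8, Krt18 and Cldn7 were above the median of all values (5.83) on all 56 arrays. Cldn4 was above it on 55, Krt14 on 53 and Krt5 on 52. Their levels varied between tumors, and Epcam ran from 7.40 to 13.92 with a median of 13.44. The array's 18S ribosomal RNA control was uneven: it averaged 12.74 ± 0.90 in irradiated and 11.28 ± 1.78 in sham-irradiated wild-type hosts (SD, n = 23 and 9), and it was below 11 on 2 and 4 of these arrays. In heterozygote hosts it was below 11 on 2 arrays of irradiated and 1 of sham hosts. Results it touches are given with it.

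**Figure D1:**
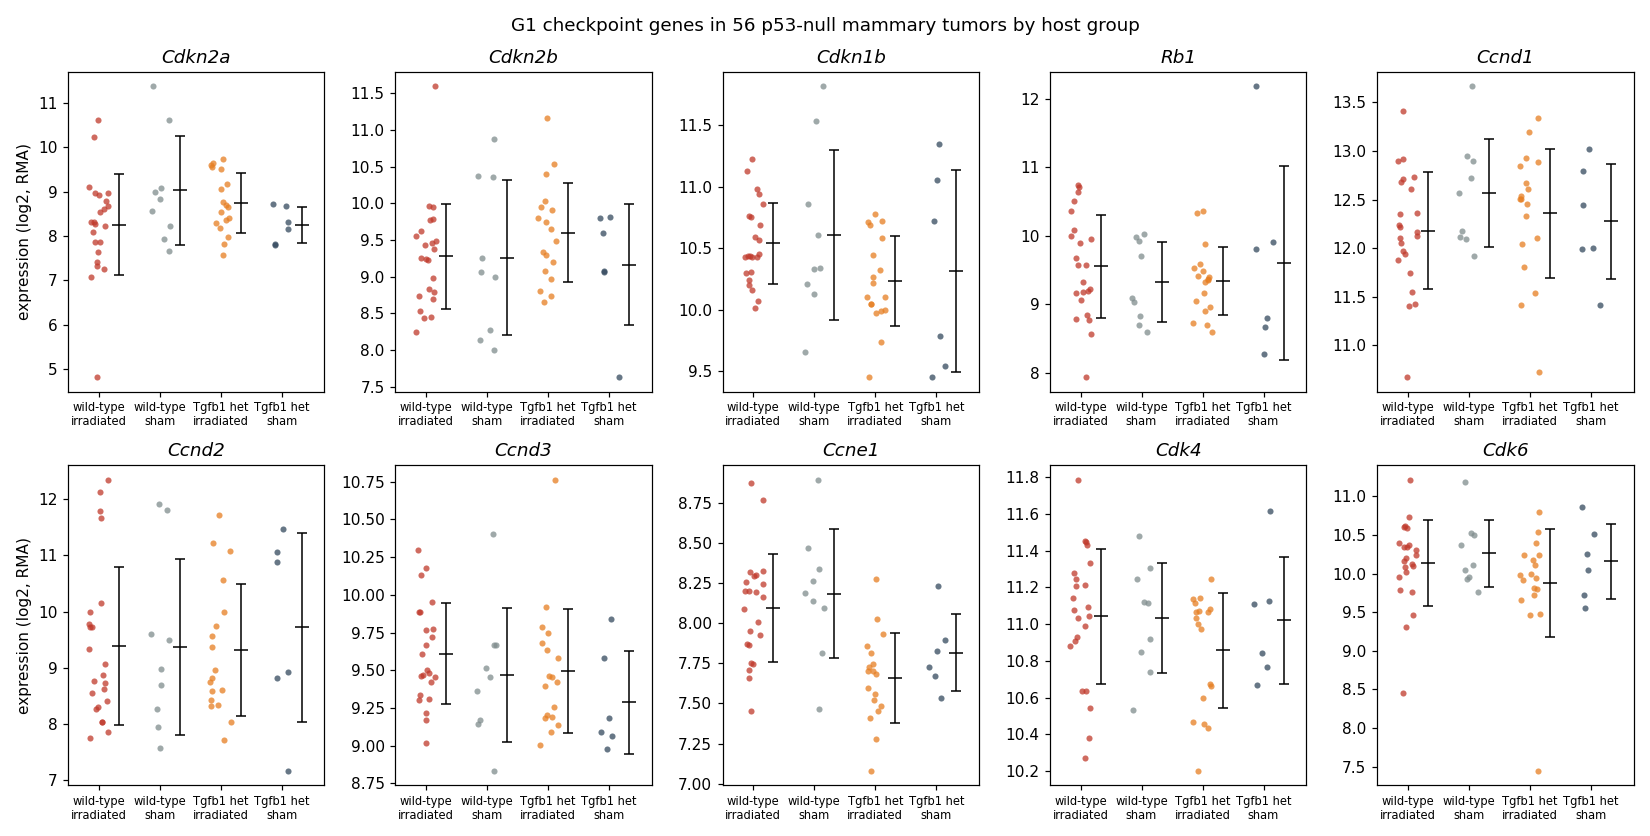
Expression (log2) of the 10 genes in each of 56 tumors, by host genotype and irradiation; points are tumors, and the bar beside each group is its mean ± SD. The groups overlap for every gene, and single tumors lie far from their group for Cdkn2a, Cdkn2b, Rb1 and Cdk6.

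Cdkn2a (chromosome 4, 89274473 to 89294619 in GRCm38.p6) was read by a single probe set, and which of its transcripts that set reads was not analysed here. Its lowest, median and highest values were 4.82, 8.31 and 10.62 in tumors of irradiated wild-type hosts, and 7.67, 8.83 and 11.37 in those of sham-irradiated wild-type hosts. In Tgfb1 heterozygote hosts they were 7.58, 8.68 and 9.74 with irradiation and 7.81, 8.24 and 8.72 with sham irradiation. The groups overlapped in both genotypes. Tumors of wild-type hosts spanned 6.555 log2 units, with tumor 24 alone below 7, and those of heterozygote hosts 2.17; the SD within groups of wild-type hosts was above that of 93.1% of genes. In wild-type hosts the mean was lower by 0.78 with host irradiation (8.26 ± 1.14 in irradiated and 9.03 ± 1.23 in sham hosts, SD, n = 23 and 9; limma, SE 0.38, 95% interval -1.53 to -0.023, unadjusted p = 0.0435). Over all genes the adjusted p was 0.693, so this did not pass the test, and 6 of the 23 irradiated-host tumors exceeded the median of the sham hosts. The 4 highest Cdkn2a values of wild-type hosts came from arrays whose 18S control was below 11, 2 in each group. The difference was -0.33 without such arrays (limma adjusted p = 0.835), -0.13 once the 18S value entered the fit as a covariate (limma adjusted p = 0.953) and -0.48 without tumor 60 of the sham-irradiated wild-type hosts. In Tgfb1 heterozygote hosts the difference had the other sign, 0.50 (95% interval -0.40 to 1.40), and 14 of the 18 irradiated-host tumors exceeded the median of the sham hosts. The 2 differences stood 1.28 apart (limma, SE 0.59, unadjusted p = 0.0336, adjusted p = 0.999), and 0.75 apart without the arrays of low 18S.

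Tumor 24 of the irradiated wild-type hosts was the one with the lowest Cdkn2a of all 56. Its value of 4.82 was below the median of all values, which no other tumor's was, so it may not be above background and no fold is given. Only 6 of the 12508 genes lay further below their median in that tumor. Its neighbors at lower coordinates were Mtap, a methionine salvage enzyme that is often lost together with CDKN2A in human tumors, at 0.98 below its median and lowest of all 32 wild-type hosts, then Ifnz at 0.029 above and Klhl9 at 0.44 above. At higher coordinates Cdkn2b was 0.995 below its median, the third lowest of 32, and Tusc1 was 0.26 below and Caap1 0.46 above. In the same tumor Rb1 was 1.29 above its median, the highest of its group, and Cdkn1b 0.80 above, also the highest of its group. The 18S control was 12.51 there, and the scores of other cell types were within 1 of their median. A direct measure of gene copy number was not analysed here.

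High Cdkn2a was seen in tumor 59 (10.62) of the irradiated wild-type hosts and in tumors 60 (11.37) and 61 (10.63) of the sham-irradiated wild-type hosts, all at least 2 log2 units above the median of 8.43. Tumor 57 of the irradiated wild-type hosts, at 1.80 above, was the nearest below that limit. Mtap was 1.15 above its median in tumor 59, 1.54 above in tumor 60, the highest of its genotype, and 0.305 above in tumor 61, which is within its SD of 0.56 over wild-type hosts. These arrays had 18S values of 9.46, 9.44 and 9.49. In tumors 59 and 60 the score of the 8 epithelial genes was 3.79 and 2.93 below its median, and that of 4 skeletal muscle genes was 6.20 and 5.65 above. In tumor 61 both scores lay nearer their medians, at 0.45 and 1.13 above. The muscle score ran over 5.07 to 11.56 in irradiated and 5.01 to 11.01 in sham-irradiated wild-type hosts, and the part of either marker list in the Cdkn2a values was not tested. Over all 32 arrays of wild-type hosts Cdkn2a correlated with the 18S control (r = -0.55, permutation p adjusted over 110 relations = 0.0215). Spearman's rho was -0.33 (adjusted permutation p = 0.273), and r was -0.36 without the 2 arrays of most distant 18S. That control fell into separate clusters, so its relation to Cdkn2a is also given within each. Within the 26 arrays whose 18S control was 11.95 or more, Cdkn2a and the 18S control did not correlate detectably (r = -0.11, permutation p = 0.567, rho = -0.064, permutation p = 0.756, n = 26; r = 0.10 without the 2 arrays of most distant 18S). Within the 6 arrays below 11, r was -0.48 (exact permutation p = 0.378) and rho -0.71 (exact permutation p = 0.136). These clusters were split on the 18S value itself, which narrows its range, and the low one holds only 6 arrays. They thus cannot decide whether Cdkn2a and the 18S control are related.

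Cdkn2b (chromosome 4, 89306289 to 89311032), also read by a single probe set, encodes p15, an Ink4 inhibitor that transforming growth factor beta is known to induce in epithelial cells. Its lowest, median and highest values were 8.25, 9.25 and 11.59 in irradiated and 7.998, 9.06 and 10.88 in sham-irradiated wild-type hosts. In heterozygote hosts they were 8.66, 9.57 and 11.17 in irradiated and 7.63, 9.34 and 9.81 in sham hosts. The groups overlapped, and the difference of irradiated minus sham was 0.021 (95% interval -0.58 to 0.62) in wild-type and 0.44 (95% interval -0.28 to 1.16) in heterozygote hosts. Tumor 57 of the irradiated wild-type hosts held the highest value, 2.34 above the median. That array had an 18S value of 10.66 and the highest 3' minus 5' control difference of any tumor standing apart, 0.911. Across tumors Cdkn2b correlated with that difference in wild-type hosts (r = 0.59, permutation p adjusted over 110 relations = 0.0215; rho = 0.46, adjusted permutation p = 0.0779; r = 0.49 without the 2 arrays of most distant difference, n = 32). In heterozygote hosts r was 0.51 (adjusted permutation p = 0.164; rho = 0.37, adjusted permutation p = 0.452; r = 0.31 without 2, n = 24).

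Across tumors Cdkn2a and Cdkn2b rose and fell together. After removal of group means, Pearson's r was 0.75 over 32 tumors of wild-type hosts (permutation p adjusted over 45 pairs = 0.00045) and 0.70 over 24 of heterozygote hosts (adjusted permutation p = 0.00675), and Spearman's rho was 0.76 and 0.74. Without the 2 tumors of most distant Cdkn2a, r was 0.79 and 0.73. Of the 45 pairs among the 10 genes, 3 passed by r in wild-type and 2 in heterozygote hosts. By rho, Cdkn2a with Cdk6 and Ccnd1 with Ccnd2 also passed in wild-type hosts (rho = 0.50 for each, adjusted permutation p = 0.0403 for each). Their r was 0.36 and 0.47 there (adjusted permutation p = 0.226 and 0.0536). In heterozygote hosts their rho was 0.18 and 0.24 (adjusted permutation p = 0.795 and 0.735). Among all genes, Cdkn2b had the fourth highest correlation with Cdkn2a in wild-type and the third highest in heterozygote hosts. Without the arrays of low 18S the relation still held, at r = 0.68 (adjusted permutation p = 0.00225) and r = 0.65 (adjusted permutation p = 0.0376). Over all 56 tumors the gene most like Cdkn2a was Mtap, 0.13 Mb away between gene midpoints (r = 0.76), followed by the growth hormone receptor gene Ghr (r = 0.73), on another chromosome, and Cdkn2b (r = 0.72).

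Because these 2 genes ran together, the 250 bases before each of their annotated starts are shown, from RefSeq on GRCm38.p6, minus strand, 5′ to 3′; 7 of the 10 genes had promoters in the table used. Capitals mark a match to an E2F motif, searched on both strands as TTTCCCGC, TTTGGCGC, TTTCGCGC and TTTGCCGC. The first sequence lies at chr4:89294620-89294869, the second at chr4:89282193-89282442 and the third at chr4:89311033-89311282.
Cdkn2a, upstream start: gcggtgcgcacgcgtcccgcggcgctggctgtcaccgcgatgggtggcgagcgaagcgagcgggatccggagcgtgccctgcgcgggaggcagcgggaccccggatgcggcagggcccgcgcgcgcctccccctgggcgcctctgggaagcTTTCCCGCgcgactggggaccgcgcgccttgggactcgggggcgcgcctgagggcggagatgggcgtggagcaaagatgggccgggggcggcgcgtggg
Cdkn2a, downstream start: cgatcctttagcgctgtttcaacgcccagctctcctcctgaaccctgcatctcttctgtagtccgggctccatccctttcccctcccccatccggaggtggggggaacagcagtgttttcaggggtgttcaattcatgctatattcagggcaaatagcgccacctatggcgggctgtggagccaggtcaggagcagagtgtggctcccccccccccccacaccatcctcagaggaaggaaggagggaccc
Cdkn2b: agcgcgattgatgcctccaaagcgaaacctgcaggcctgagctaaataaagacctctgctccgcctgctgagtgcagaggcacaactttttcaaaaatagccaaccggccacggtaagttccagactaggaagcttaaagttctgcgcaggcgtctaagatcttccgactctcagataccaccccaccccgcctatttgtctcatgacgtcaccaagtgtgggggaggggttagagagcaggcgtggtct
The upstream Cdkn2a sequence held 1 match, its first base 99 bases before the start (-99), and the other 2 held no such letters in this window. Of 32851 promoters of the same length, 1.86% had a match. The share of G and C was 78.4%, 60% and 53.6% in these 3 sequences, against a median of 52.4% over all promoters.

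Cdkn1b (chromosome 6, 134920401 to 134925525) varied less. It averaged 10.54 ± 0.33 in irradiated and 10.61 ± 0.69 in sham-irradiated wild-type hosts (SD, n = 23 and 9), and 10.23 ± 0.37 in irradiated and 10.32 ± 0.82 in sham-irradiated heterozygote hosts (SD, n = 18 and 6). The differences were -0.070 (95% interval -0.44 to 0.30) and -0.083 (95% interval -0.53 to 0.36). Tumor 17 of the sham-irradiated wild-type hosts had the highest value, 11.82, which is 1.38 above the median.

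Rb1 (chromosome 14, 73192858 to 73325951) encodes the protein that cyclin D kinases inactivate. Its lowest, median and highest values were 7.93, 9.57 and 10.74 in irradiated and 8.59, 9.09 and 10.03 in sham-irradiated wild-type hosts. In heterozygote hosts they were 8.60, 9.36 and 10.36 in irradiated and 8.28, 9.31 and 12.18 in sham hosts. The groups overlapped, and the differences of 0.24 (95% interval -0.35 to 0.82) and -0.27 (95% interval -0.97 to 0.43) did not pass the test. In heterozygote hosts 1 tumor set the sign: without tumor 52 of the sham hosts the difference was 0.25.

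Tumor 52 of the sham-irradiated Tgfb1 heterozygote hosts had an Rb1 value of 12.18, 2.82 above the median of its genotype. The second Rb1 probe set was above the median of all values on 1 of 56 arrays, not this one, and is not read here. The epithelial score was 0.95 below its median in this tumor, the fibroblast and matrix score 0.92, the endothelial 1.26, the leukocyte 0.975 and the adipocyte score 1.75 below, and 317 genes lay 2 or more log2 units below theirs; the part of these in the Rb1 value was not tested. Of the flanking genes, Lpar6, which lies within Rb1, was 0.21 below its median, Rcbtb2 0.18 below and Itm2b 0.22 above, while Med4 was 0.66 and Fndc3a 1.15 above. The same tumor had the lowest Cdkn2b (7.63), Ccnd2 (7.17) and Ccnd1 (11.41) of its group. At the low end, tumor 16 of the irradiated wild-type hosts had Rb1 at 7.93, 1.51 below the median. That tumor also had the lowest Cdk6 of wild-type hosts and one of the high Ccnd2 values.

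**Figure D2:**
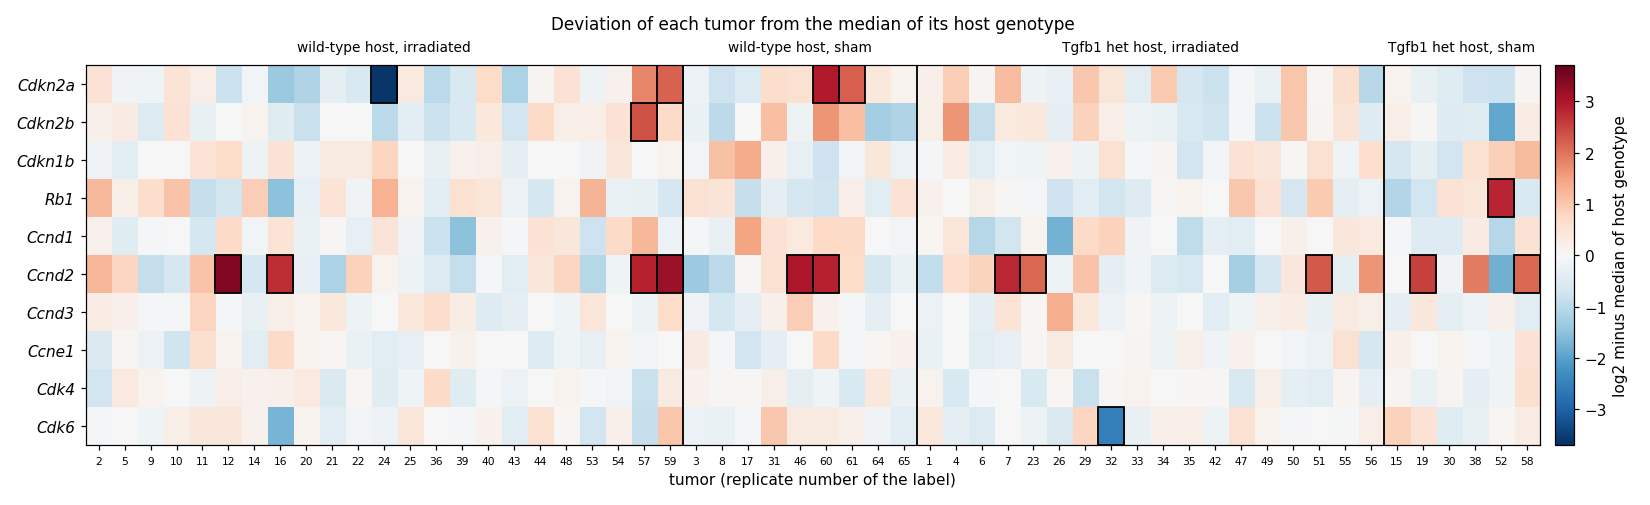
Deviation of each tumor (columns, numbered as in the labels) from the median of its host genotype, in log2 units, for the 10 genes; black frames mark deviations of 2 or more, which is 4-fold. The framed cells are Ccnd2 in 11 tumors, Cdkn2a in 4, and Cdkn2b, Rb1 and Cdk6 in 1 each.

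In all, 15 of 56 tumors lay at least 2 log2 units from their genotype's median for at least 1 of the 10 genes. They were 5 of 23 in irradiated and 3 of 9 in sham-irradiated wild-type hosts, and 4 of 18 in irradiated and 3 of 6 in sham-irradiated heterozygote hosts. Such a tumor was found for 5 of the 10 genes: 4 of 10 had one above, against 20.9% of all genes, and 2 of 10 had one below, against 11% of all genes; 27.2% of all genes had either. These shares are a description and carry no test, and the 10 genes were chosen with earlier results of these data known.

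Ccnd1 (chromosome 7, 144929931 to 144939831) had lowest, median and highest values of 10.67, 12.16 and 13.41 in irradiated and 11.92, 12.57 and 13.66 in sham-irradiated wild-type hosts. In heterozygote hosts they were 10.73, 12.51 and 13.34 in irradiated and 11.41, 12.22 and 13.02 in sham hosts. The difference was -0.39 (limma, 95% interval -0.86 to 0.0885, adjusted p = 0.792) in wild-type and 0.083 (95% interval -0.49 to 0.65) in heterozygote hosts, with overlapping groups in each. Its other probe sets gave larger differences in wild-type hosts, -0.58 and -0.57 (limma adjusted p = 0.592 and 0.617), and 0.016 and 0.045 in heterozygote hosts. Ccnd1 correlated with Cdkn2b, with r = 0.52 and rho = 0.50 in wild-type hosts (adjusted permutation p = 0.0401 for r and 0.0403 for rho, n = 32) and r = 0.59 and rho = 0.66 in heterozygote hosts (adjusted permutation p = 0.047 for r and 0.0162 for rho, n = 24). This relation was less firm than that of the Ink4 genes. Without centring on group means it missed the threshold in both genotypes (r = 0.49, adjusted permutation p = 0.051, and r = 0.58, adjusted permutation p = 0.0666). Without the 2 tumors of most distant Cdkn2b r was 0.38 and 0.52, and without the arrays of low 18S it was 0.34 (adjusted permutation p = 0.324) and 0.56 (adjusted permutation p = 0.122). With each tumor left out in turn it missed the threshold in 8 of 32 cases in wild-type and 19 of 24 in heterozygote hosts, and the lowest r was 0.40, without tumor 57 of the irradiated wild-type hosts, and 0.52, without tumor 52 of the sham-irradiated heterozygote hosts.

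Ccnd2 (chromosome 6, 127125162 to 127152188) varied most among the 10 genes: its SD within groups was above that of 96.6% of genes in wild-type and 96.5% in heterozygote hosts. Its lowest, median and highest values were 7.74, 8.88 and 12.35 in irradiated and 7.58, 8.98 and 11.92 in sham-irradiated wild-type hosts. In heterozygote hosts they were 7.72, 8.89 and 11.72 in irradiated and 7.17, 9.90 and 11.48 in sham hosts. The difference by irradiation was 0.022 (95% interval -1.05 to 1.09) in wild-type and -0.40 (95% interval -1.69 to 0.88) in heterozygote hosts. Changes of up to about a doubling in either direction thus lie within the interval in wild-type hosts. In heterozygote hosts the difference was -0.91 without tumor 52 and -0.048 without tumor 19, both of the sham hosts.

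In wild-type hosts Ccnd2 fell into separate clusters, 6 tumors at 11.67 to 12.35 and 26 at 7.58 to 10.16. The 6 high ones were tumors 12, 16, 57 and 59 of irradiated and 46 and 60 of sham-irradiated hosts. The 18S control was 10.66, 9.46 and 9.44 in tumors 57, 59 and 60, and 12.91, 13.25 and 11.95 in tumors 12, 16 and 46. Over the 32 tumors Ccnd2 and the 18S control had r = -0.40 (permutation p adjusted over 110 relations = 0.102). Spearman's rho was -0.21 (adjusted permutation p = 0.486), and r was -0.16 without the 2 arrays of most distant 18S. In heterozygote hosts tumors 7, 23 and 51 of irradiated and 19 and 58 of sham-irradiated hosts were at least 2 log2 units above the median, and tumor 38 of the sham hosts, at 1.93 above, was nearest below that limit. Of these, only tumor 19 had an 18S value below 11 (9.80). The other Ccnd2 probe sets followed, with correlations of 0.81 to 0.996 to the one used. Of the 11 tumors, 8 had an epithelial score below the median of their genotype, 7 had a fibroblast and matrix score above it, 7 an endothelial score above it, 8 a leukocyte score above it and 8 a skeletal muscle score above it. The adipocyte score was above it in 6 of the 11 and the proliferation score in 4. Over all tumors of a genotype as many lie above a median as below it, and these counts carry no test. Tumor 12, which had the highest Ccnd2, had an epithelial score 1.09 above and a fibroblast score 0.80 below the median, whereas tumor 59, the second highest, had an epithelial score 3.79 below. The part of other cell types was not tested, and in bulk tumor RNA fewer cells of a type and less RNA per cell cannot be told apart.

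Rb1 was below its median in 9 of the 11 tumors with high Ccnd2. Rb1 and Ccnd2 were the third pair of wild-type hosts past the threshold by r over all 32 tumors. There r was -0.59 (adjusted permutation p = 0.0065) and rho -0.59 (adjusted permutation p = 0.00945). With each tumor left out in turn, r stayed between -0.65 and -0.54 (adjusted permutation p 0.0009 to 0.0209). In heterozygote hosts r was -0.34 (adjusted permutation p = 0.551, n = 24). Within the clusters of wild-type hosts, r was 0.29 among the tumors of high Ccnd2 (exact permutation p = 0.578, n = 6). Among the others it was -0.34 (permutation p = 0.0933, rho = -0.36, permutation p = 0.0697, n = 26). The clusters were split on Ccnd2 itself, which narrows its range, and the high one holds only 6 tumors. They thus cannot decide whether the relation holds within them. Over all 32 tumors of wild-type hosts the score of the 5 leukocyte genes kept correlated with Ccnd2 (r = 0.51, permutation p adjusted over 110 relations = 0.0357, rho = 0.61, adjusted permutation p = 0.011). So did the endothelial score by r (r = 0.48, adjusted permutation p = 0.0411, rho = 0.52, adjusted permutation p = 0.0581). In heterozygote hosts r was 0.57 for the leukocyte and 0.55 for the endothelial score (adjusted permutation p = 0.0851 and 0.105). The leukocyte score also correlated with Ccnd2 among the 26 tumors of lower Ccnd2 (r = 0.52, permutation p adjusted over 6 relations = 0.0357, rho = 0.62, adjusted permutation p = 0.0054, r = 0.68 without the 2 tumors of most distant score). Among the 6 others r was 0.62 (exact permutation p = 0.215). The genes most like Ccnd2 over all 56 tumors were Chst15 (r = 0.78), a sulfotransferase of chondroitin chains, Snai2 (r = 0.78), a transcription factor known for epithelial to mesenchymal transition, and Doc2b (r = 0.78).

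Ccnd3 (chromosome 17, 47505051 to 47599689) averaged 9.61 ± 0.34 in irradiated and 9.47 ± 0.44 in sham-irradiated wild-type hosts (SD, n = 23 and 9), and 9.50 ± 0.41 in irradiated and 9.29 ± 0.34 in sham-irradiated heterozygote hosts (SD, n = 18 and 6). Averaged over host genotypes it was 0.17 higher with host irradiation (95% interval -0.060 to 0.41), the lowest p of the 10 genes in that comparison (limma, unadjusted p = 0.142, adjusted p = 0.744). Its other 2 probe sets gave -0.065 and -0.0087 there, and they correlated with the one used at only 0.016 and 0.33 in wild-type and 0.42 and 0.13 in heterozygote hosts, so the Ccnd3 values hold for 1 probe set. In wild-type hosts Ccnd3 had r = -0.50 with the epithelial and 0.50 with the endothelial score (permutation p adjusted over 110 relations = 0.0374 and 0.0383). Spearman's rho was -0.23 and 0.24 (adjusted permutation p = 0.452 and 0.44). In heterozygote hosts r was -0.27 and 0.47 (adjusted permutation p = 0.586 and 0.26).

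Tumor 26 of the irradiated Tgfb1 heterozygote hosts had the highest Ccnd3, 10.76, which is 1.36 above the median. The genes most like Ccnd3 were Xpo5 (r = 0.78), a nuclear export factor of precursor miRNAs, Tjap1 (r = 0.78) and the phosphatase subunit gene Ppp2r5d (r = 0.77), all on chromosome 17 with midpoints within 1.33 Mb. In tumor 26 they were 1.98, 1.24 and 1.80 above their medians, each the highest of 24. These genes were picked for their correlation over the same tumors, and at the other extremes they were mostly not the outermost. In tumor 46 of the sham-irradiated wild-type hosts, with the highest Ccnd3 of that genotype, they ranked 9, 7 and 10 of 32 from the highest, and in tumor 8 of the same hosts, with the lowest, 6, 1 and 4 from the lowest. In tumor 58 of the sham-irradiated heterozygote hosts, with the lowest Ccnd3 of that genotype, they ranked 12, 9 and 10 of 24 from the lowest. Tumor 26 also had the lowest Ccnd1 of heterozygote hosts, 10.73, which is 1.75 below the median. One cyclin D gene was thus at its highest and another at its lowest of the genotype in a single tumor.

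Ccne1 (chromosome 7, 38097984 to 38107490) encodes cyclin E1. It averaged 8.09 ± 0.34 in irradiated and 8.18 ± 0.40 in sham-irradiated wild-type hosts (SD, n = 23 and 9), and 7.66 ± 0.28 in irradiated and 7.81 ± 0.24 in sham-irradiated heterozygote hosts (SD, n = 18 and 6). The differences were -0.090 (95% interval -0.34 to 0.16) and -0.16 (95% interval -0.46 to 0.15). The tumor farthest from its genotype's median lay 0.72 log2 units away.

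Cdk4 (chromosome 10, 127063535 to 127067288) averaged 11.04 ± 0.37 in irradiated and 11.03 ± 0.30 in sham-irradiated wild-type hosts (SD, n = 23 and 9), and 10.86 ± 0.31 in irradiated and 11.02 ± 0.35 in sham-irradiated heterozygote hosts (SD, n = 18 and 6). The differences were 0.0082 (95% interval -0.26 to 0.28) and -0.16 (95% interval -0.48 to 0.16), and the tumor farthest from its genotype's median lay 0.81 away. Within that narrow span Cdk4 followed proliferation. Its correlation with the mean of 5 proliferation genes (Mki67, Top2a, Cdk1, Bub1 and Aurka) was r = 0.59 in wild-type hosts (permutation p adjusted over 110 relations = 0.016; rho = 0.51, adjusted permutation p = 0.0587; r = 0.47 without the 2 tumors of most distant score) and r = 0.69 in heterozygote hosts (adjusted permutation p = 0.0198; rho = 0.73, adjusted permutation p = 0.0088; r = 0.72 without 2). For Rb1 the same relation was negative in wild-type hosts (r = -0.52, adjusted permutation p = 0.0297; rho = -0.60, adjusted permutation p = 0.0147; r = -0.79 without 2), and in heterozygote hosts it was -0.38 (adjusted permutation p = 0.365). Cdk4 and the 3' minus 5' control difference had r = -0.41 in wild-type hosts (adjusted permutation p = 0.0995, r = -0.085 without 2 arrays). In heterozygote hosts r was -0.57 (adjusted permutation p = 0.0851, r = -0.52 without 2 arrays). The part of that difference in the relation of Cdk4 with proliferation was not tested.

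The genes most like Cdk4 over all 56 tumors were Prim1 (r = 0.81), the small primase subunit of DNA replication, Pa2g4 (r = 0.80) and the splicing factor gene Snrpd3 (r = 0.80), all on chromosome 10, with midpoints 0.96, 1.5 and 51.5 Mb away. In tumor 36 of the irradiated wild-type hosts, which had the highest Cdk4 of its genotype (11.79), all 3 were the highest of 32. In tumor 57 of the irradiated wild-type hosts, which had the lowest (10.27), all 3 were the lowest. That array had an 18S value of 10.66 and a 3' minus 5' control difference of 0.911, and its proliferation score was 1.48 below the median. Prim1, Pa2g4 and Snrpd3, too, were picked on the same tumors. In tumor 29 of the irradiated heterozygote hosts, with the lowest Cdk4 of that genotype, they ranked 2, 5 and 2 of 24 from the lowest, and in tumor 58 of the sham hosts, with the highest, 5, 1 and 1 from the highest. The 250 bases before the Cdk4 start (chr10:127063285-127063534, GRCm38.p6, plus strand, RefSeq) are shown because they repeat the E-box CACGTG, in capitals, a motif known to be bound by Myc and related factors.
Cdk4: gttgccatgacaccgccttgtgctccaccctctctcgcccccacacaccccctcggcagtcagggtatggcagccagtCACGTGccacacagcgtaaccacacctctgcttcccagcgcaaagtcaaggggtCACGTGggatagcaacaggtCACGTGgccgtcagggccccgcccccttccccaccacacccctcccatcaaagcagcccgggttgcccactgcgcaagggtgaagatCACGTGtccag
The 4 matches begin at -172, -118, -98 and -11, counted from the start. The motif reads the same on both strands, 6.02% of the 32851 promoters held at least 1 match, and 0.0609% held 3 or more.

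Genes of the same chromosome, at any distance along it, thus made up much of the list for Ccnd3 and Cdk4. Of the 50 genes most like Ccnd3, 33 were on chromosome 17, which holds 4.78% of the genes tested, and of the 50 most like Cdk4, 28 were on chromosome 10, which holds 4.79%. For Cdkn1b it was 12 of 50, with 5.21% of genes on chromosome 6. For Ccnd2 and Cdk6 it was 2 of 50 and for Rb1 1 of 50. This count was chosen after the values were seen and is given as a description.

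**Figure D3:**
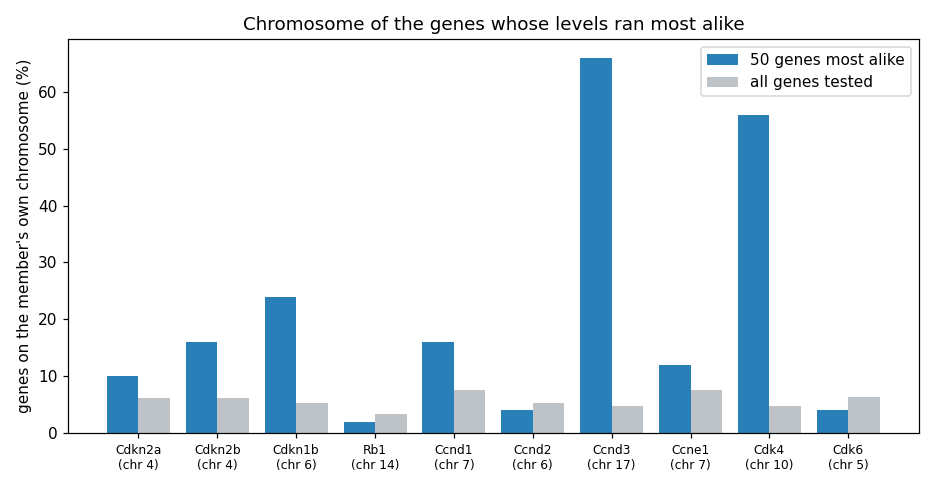
Share (%) of the 50 genes whose levels correlated most with each of the 10 genes over 56 tumors that lie on the same chromosome as that gene (blue), beside the share of all tested genes on that chromosome (grey). The blue bar is highest for Ccnd3 (33 of 50 genes) and Cdk4 (28 of 50).

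Cdk6 (chromosome 5, 3341004 to 3531008), the other partner of D cyclins, is known for its role in blood cells. Its lowest, median and highest values were 8.45, 10.20 and 11.21 in irradiated and 9.76, 10.11 and 11.18 in sham-irradiated wild-type hosts. In heterozygote hosts they were 7.45, 9.96 and 10.80 in irradiated and 9.55, 10.15 and 10.86 in sham hosts. The differences were -0.13 (95% interval -0.58 to 0.33) and -0.29 (95% interval -0.83 to 0.26), with overlapping groups. The value was -0.011 without tumor 31 of the sham hosts in wild-type hosts, and -0.14 without tumor 32 of the irradiated hosts in heterozygote hosts. The genes most like Cdk6 were those of macrophages and other myeloid cells: C1qb (r = 0.67), a complement subunit, Clec5a (r = 0.66), a lectin receptor, and Fcer1g (r = 0.66), a signalling chain of Fc receptors. In wild-type hosts Cdk6 correlated with the leukocyte score (r = 0.67, permutation p adjusted over 110 relations = 0.0011; rho = 0.69, adjusted permutation p = 0.0022; r = 0.57 without the 2 tumors of most distant score, n = 32). In heterozygote hosts r was 0.41 (adjusted permutation p = 0.312; rho = 0.22, adjusted permutation p = 0.679) and -0.029 without 2 tumors. Whether the genotypes differ in this relation was not tested. The leukocyte score ran over 8.85 to 10.76 in irradiated and 9.35 to 10.74 in sham-irradiated wild-type hosts, and over 8.67 to 10.53 in irradiated and 8.51 to 10.08 in sham-irradiated heterozygote hosts; Ptprc, Csf1r, Cd68 and Laptm5 were above the median of all values on every array, and Cd79a was below it on every array.

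Tumor 32 of the irradiated Tgfb1 heterozygote hosts stood 2.54 below the median in Cdk6. The second brightest Cdk6 probe set was 2.03 below its median, the lowest of 24, and the dimmest was also at its lowest there, under the median of all values. The measured neighbors on chromosome 5, all at higher coordinates, were near their medians: Fam133b 0.19 below, Rbm48 0.21 below and Gatad1 0.16 below. No gene kept for testing lay at lower coordinates, so that side was not read. C1qb, Clec5a and Fcer1g were 2.09, 2.03 and 1.66 below, each the lowest of 24 (Clec5a under the median of all values); they were picked for their correlation with Cdk6 over the same tumors. The leukocyte score was 0.81 below its median and the adipocyte score 2.15 above; their part was not tested. In tumor 16 of the irradiated wild-type hosts, with the lowest Cdk6 of that genotype (8.45, 1.72 below the median), the same 3 genes were each the lowest of 32. In tumor 15 of the sham-irradiated heterozygote hosts, with the highest Cdk6 of its genotype, they were below their medians, at ranks 19, 19 and 18 of 24 from the highest.

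**Figure D4:**
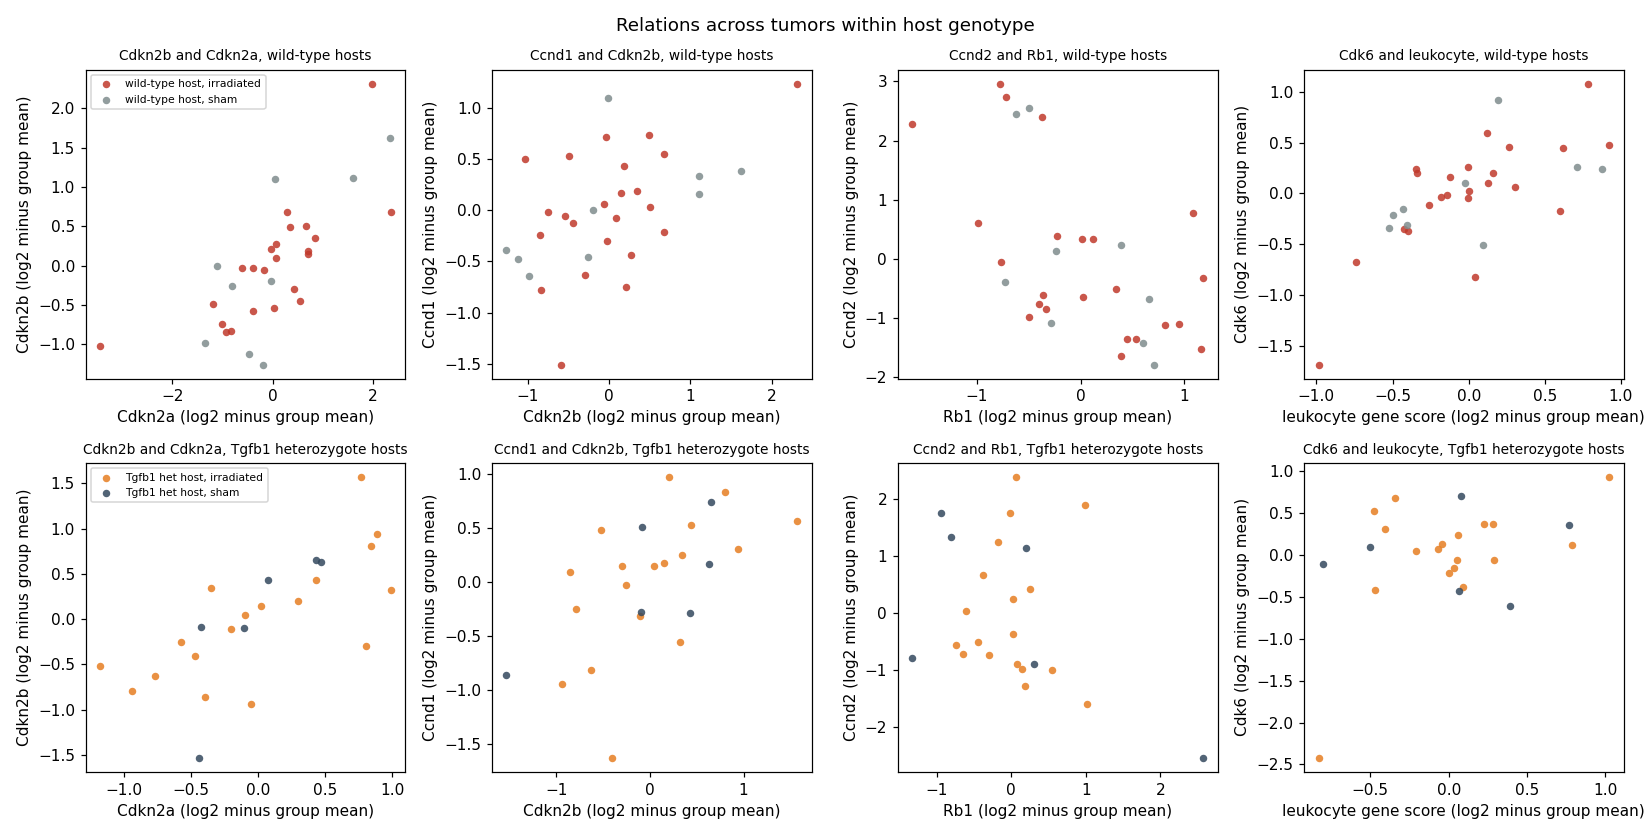
Relations across tumors, each value in log2 units minus its group mean, in wild-type hosts (upper row, n = 32) and Tgfb1 heterozygote hosts (lower row, n = 24); points are tumors coloured by host irradiation. Cdkn2b rises with Cdkn2a in both rows (r = 0.75 and 0.70), Ccnd2 shows a separate high cluster in wild-type hosts, and Cdk6 rises with the leukocyte score in wild-type hosts (r = 0.67).

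The whole set can now be set beside the test across all genes. By limma with Benjamini-Hochberg adjustment at 0.05, 0 of the 10 genes were called for irradiation in wild-type hosts, where 0% of 12508 genes were; 1 of 10 had an unadjusted p under 0.05, against 7.07% of all genes. In Tgfb1 heterozygote hosts 0 of 10 were called (0% of all genes), and 0 of 10 had an unadjusted p under 0.05, against 5.84%. For the difference between host genotypes 0 of 10 were called (0% of all genes), and 1 of 10, Cdkn2a, had an unadjusted p under 0.05, against 4.84%. Averaged over genotypes 0 of 10 were called (0.00799% of all genes), and 0 of 10 had an unadjusted p under 0.05, against 7.77%. The median difference of the 10 genes was -0.031 in wild-type and -0.12 in heterozygote hosts, and that of all genes was -0.0028 and 0.0088. The 95% intervals together reached from -1.53 (Cdkn2a) to 1.09 (Ccnd2) in wild-type and from -1.69 (Ccnd2) to 1.40 (Cdkn2a) in heterozygote hosts. In both genotypes the widest single interval was that of Ccnd2. A p above the threshold thus does not show that levels were alike.

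**Figure D5:**
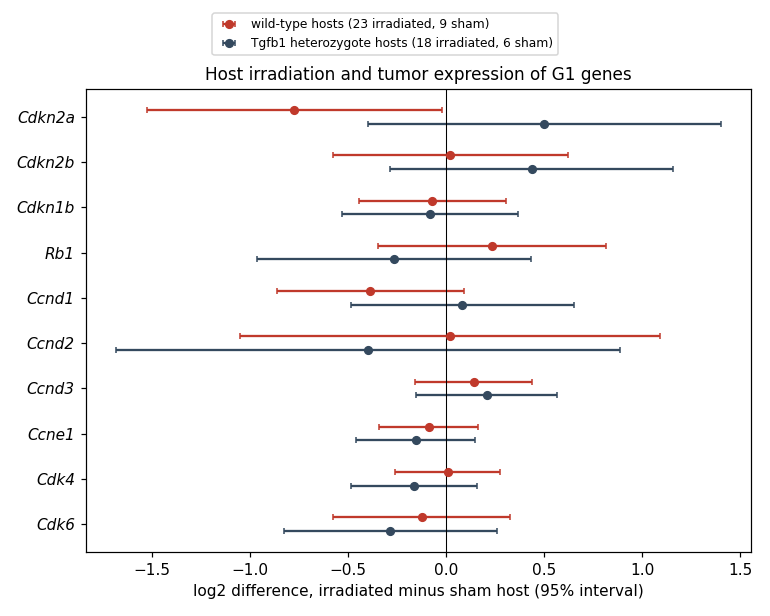
Difference in mean log2 expression, irradiated minus sham-irradiated hosts, with its 95% interval from limma, for the 10 genes in wild-type hosts (red; 23 irradiated, 9 sham) and Tgfb1 heterozygote hosts (dark; 18 irradiated, 6 sham). The interval spans 0 for every gene except Cdkn2a in wild-type hosts (-1.53 to -0.023), whose adjusted p was 0.693.

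The rest of the pathway was described with a list of 27 partners, holding the other G1/S cyclins, their kinases, inhibitors and E2F factors. By limma 0 of 27 were called in any of the 4 comparisons, and 3, 1, 1 and 3 had an unadjusted p under 0.05 for wild-type hosts, heterozygote hosts, their difference and their average. Of all genes 0%, 0%, 0% and 0.00799% were called, and 7.07%, 5.84%, 4.84% and 7.77% had an unadjusted p under 0.05. Cdk7, the kinase that activates cyclin-dependent kinases, had the lowest p: 0.45 in wild-type hosts (limma adjusted p = 0.287), 0.31 in heterozygote hosts (limma adjusted p = 0.844) and 0.38 averaged over both (limma adjusted p = 0.195). E2f1, an activating E2F factor, was at -0.37 in wild-type hosts (limma adjusted p = 0.502). Of 24 E2F target genes 0 were called by limma in any comparison, with 0, 0, 1 and 1 at an unadjusted p under 0.05, against the same shares of all genes. Their median difference was 0.027 in wild-type and -0.16 in heterozygote hosts, against -0.0028 and 0.0088 over all genes. In heterozygote hosts 20 of 24 had a negative difference, and in wild-type hosts 10 of 24. The share of all genes with a negative difference was not counted, so these counts are only a description. Mcm3, a subunit of the replicative helicase, had the lowest p in heterozygote hosts (-0.38, limma adjusted p = 0.874).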

How the data were processed

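Total RNA of 56 tumors, 100 ng per array, was measured on Affymetrix 3' expression arrays, per the labels' protocols. Each file value is the log2 level of 1 probe set as the authors deposited it, after RMA, per the submitters' processing notes, and no RMA version is given in the sources used here. The number of arrays, not a read depth, limits the precision. Array medians differed between host genotypes, which were treated as normalized apart. Groups came from the sample titles.

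Of 45101 probe sets, 34958 with 1 gene symbol in the platform annotation were used; 932 had several symbols and 9211 were unnamed here. Probe sets above 5.83, the overall median, on 6 or more arrays were kept, and of a gene's probe sets the one with the highest mean was used. Coordinates come from GRCm38.p6, which held 12467 of the 12508 genes tested.

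limma 3.58.1 in R 4.3.3 (lmFit and eBayes) was fitted over all 56 arrays, with a mean for each of the 4 groups, and p-values were adjusted over all genes (Benjamini-Hochberg, 0.05). Correlations used values minus their group mean, within host genotype, with 100000 permutations and adjustment over 45 pairs or 110 relations of the 10 genes with scores and controls. A score is the mean log2 value of a list's genes. A tumor stood apart at 2 log2 units or more from the median of its host genotype. The 3 genes with the highest correlation over 56 tumors were named as most alike. Where a tumor stood apart, 3 neighbors on each side were named, for Cdk6 only at higher coordinates. From the lists, the genes of lowest p were named. The fit and the permutation test were tested on simulated data. Alternatives were no or a stricter filter, joint quantile normalization, trended and robust eBayes, array weights, the 18S control or the 3' minus 5' difference as a covariate, only the groups compared, other probe sets, no centring and each array left out. Leaving out arrays with an 18S value below 11, relations with scores, clusters and chromosome counts were added after the data were seen. The genes and lists were chosen with earlier results of these data known. Matplotlib 3.10.9 in Python 3.11.15 drew the plots.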

Additional observations from a re-analysis of the deposited data

Results flagged for a closer look

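Cdkn2b in tumor 52 of the sham-irradiated Tgfb1 heterozygote hosts was 7.63, against 9.06 to 9.81 in the other tumors of that group, a gap large enough to pass Dixon's test for a group of 6. Groups of 4 to 10 tumors were examined for all 10 genes, 20 groups in all, and this was the 1 that passed; chance flags about 1 in 20 groups. The same tumor had the highest Rb1 of all heterozygote hosts, 12.18. Without it the Cdkn2b difference of irradiated minus sham in heterozygote hosts was 0.13, against 0.44 with it.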

How the results depend on the processing

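None of the alternatives run brought any of the 10 genes past the threshold for irradiation within a host genotype. For the difference between genotypes only Cdkn2a was followed through the alternatives, and for the average only Ccnd3. Neither passed, and the other genes were not checked there. The count of all genes called for irradiation averaged over host genotypes was 1, and it was 19 with array weights, 0 with the 18S control as a covariate, 0 with the 3' minus 5' difference as a covariate and 0 to 2 with each array left out (2 without tumor 31 of the sham-irradiated wild-type hosts). No paired analysis was possible because the numbers in the titles do not recur across groups. Of 232 values of single genes under the alternatives other than leaving out an array, 212 kept their sign and 20 reversed, none of them called. In wild-type hosts the reversed values were, with arrays of low 18S left out, -0.052 for Cdkn2b, -0.042 for Ccnd2, 0.084 for Ccne1 and -0.045 for Cdk4; with the 18S covariate, 0.013 for Ccne1 and -0.0746 for Cdk4; with array weights, -0.067 for Ccnd2; with joint quantile normalization, -0.014 for Cdk4; and with other probe sets, -0.043, -0.034 and -0.076 for Ccnd2, -0.26 and -0.020 for Ccnd3 and -0.0033 for Cdk4. In heterozygote hosts they were -0.041 with array weights and -0.062 with arrays of low 18S left out for Ccnd1, 0.048 with the 3' minus 5' covariate for Ccnd2 and 0.080 with another probe set for Ccne1. For the average over genotypes they were -0.065 and -0.0087 with other probe sets of Ccnd3. Leaving out each array in turn gave -0.14 to 0.22 for Cdkn2b, -0.19 to 0.080 for Cdkn1b, -0.20 to 0.34 for Ccnd2 and -0.054 to 0.064 for Cdk4 in wild-type hosts, and -0.26 to 0.12 for Cdkn1b, -0.53 to 0.25 for Rb1 and -0.090 to 0.23 for Ccnd1 in heterozygote hosts. Values that kept their sign and moved by over 1.5 times were in wild-type hosts Cdkn2a (-0.95 to -0.48), Ccnd1 (-0.47 to -0.25), Rb1 (0.14 to 0.32), Ccnd3 (0.062 to 0.26), Ccne1 (-0.18 to -0.0011) and Cdk6 (-0.19 to -0.011), and in heterozygote hosts Cdkn2b (0.13 to 0.57), Ccnd2 (-0.91 to -0.048), Ccnd3 (0.13 to 0.32), Ccne1 (-0.21 to -0.073), Cdk4 (-0.235 to -0.045) and Cdk6 (-0.41 to -0.14). The count of pairs past the threshold by r was 3 in wild-type hosts, 6 with joint quantile normalization and 2 to 7 with each array left out (7 without tumor 43 of the irradiated hosts). In heterozygote hosts it was 2, 1 without centring and 1 to 3 with each array left out (3 without tumor 56 of the irradiated hosts). The cause of these changes was not tested. Cdkn2a with Cdkn2b passed in every one of these settings. The number of arrays limits the precision, and signal over background per probe was not analysed here.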
